A study of Homo sapiens with 96 samples.

Results

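Co-treatment of A549 cells with GSK591 and MS023 for 4 days was examined for splicing events in which the combined effect was not the sum of the single effects. A549 is an established human lung adenocarcinoma cell line. GSK591 inhibits PRMT5, and MS023 inhibits the Type I PRMTs. The 12 libraries of poly(A) RNA, out of 96 libraries in the series, form 4 groups of 3. These are 0.01% DMSO, 1 µM GSK591, 1 µM MS023, and both inhibitors at 1 µM each. The labels name no transgene or added stimulus in any of them. Nothing in the sources used here says that the libraries of a group came from separate cultures. The p-values thus rest on the spread between these libraries, which may be technical. For most event types this spread was pooled over all events of the type, as given below, and not taken from the single event. The tables give the libraries by position alone, and they are called a, b, and c here with no link between the same letter in different groups.

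Members were skipped exons (SE), pairs of exons of which 1 is used (mutually exclusive exons, MXE), and exons with alternative 3′ (A3SS) or 5′ (A5SS) splice sites, listed with identical coordinates in all 3 tables that set an inhibitor group against the DMSO libraries. This left 71977 of 126353 SE, 14645 of 36007 MXE, 6740 of 8792 A3SS, and 4437 of 5821 A5SS. The reads on these events added up to between 59076292 and 78232634 per library, where a read is counted again for each event it falls on. An event was tested if each of the 12 libraries had at least 10 reads on it, which held for 83343 events. As a check of the cell type, KRT8, an epithelial keratin, had 347970 to 499365 reads per library on its tested events, and CDH1, the epithelial cadherin, had 485 to 953. EPCAM, KRT18, and the blood, endothelial, and fibroblast markers PTPRC, PECAM1, CD3E, and COL1A1 had no event in the joined tables, so their levels could not be read from these counts.

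PRMT5 places symmetric and Type I PRMTs asymmetric dimethyl marks on arginines, often on the same kinds of substrate. Well known substrates are the Sm proteins of spliceosomal snRNPs and RNA-binding proteins with arginine-glycine repeats, such as many hnRNPs. When Type I enzymes are blocked, arginines that they would have used can become available to the symmetric enzyme, so inhibiting both at once need not give the sum of inhibiting each.

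Ψ is the length-corrected share of transcripts that carry the alternative segment. For MXE it is the share with the exon that comes first in the transcript, and for A3SS and A5SS the share with the longer exon. Additivity was defined on the log2 odds of inclusion. The interaction is the log2 odds with co-treatment, minus that with GSK591, minus that with MS023, plus that with DMSO. It is 0 if the single effects add, and each unit is a factor of 2 in the odds. An event is said to lie above the sum if the interaction is positive, that is if co-treated cells included more than the single effects predict, and below the sum if it is negative. Interactions are given with their standard errors (s.e.), and Ψ as mean ± SD with n = 3. Unless another test is named, adjusted p refers to the F test of a quasi-binomial model of the counts across all 12 libraries, adjusted by Benjamini-Hochberg over all events of the same type, and an event was called if it was below 0.05.

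Most events gave no call against additivity. SE made up most of the events tested and most of the calls, and more called SE lay above the sum than below. As a share of the events tested, calls above the sum were more frequent in A5SS (1.13%) than in SE (0.836%). Of 60614 tested SE, 731 in 555 genes were called (1.21%). Of these, 507 (0.836%) were above and 224 (0.37%) below the sum. MXE had 40 (0.297%) above and 107 (0.793%) below among 147 called of 13489 (1.09%). For MXE, above means more use of the exon that comes first in the transcript, so this balance cannot be set against that of SE. A3SS had 37 (0.66%) above and 12 (0.214%) below among 49 of 5603 (0.875%), and A5SS had 41 (1.13%) above and 21 (0.577%) below among 62 of 3637 (1.7%). All 4 types together gave 989 calls in 678 genes, or 1.19% of the events tested. The called SE interactions had a median size of 0.0975 in Ψ, with 359 over 0.1 and 157 over 0.2.

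These counts rest on how the spread between libraries was estimated. For SE, A3SS, and A5SS the model settled on 1 common dispersion per type, 2.01 times binomial variance for SE. The spread of a single event of these types thus did not enter its own p or s.e. Without any pooling of the spread, 15 SE and no MXE, A3SS, or A5SS were called, with 3947, 1055, 371, and 291 at an unadjusted p under 0.05. The dispersion rose with depth, from 1.67 for SE with under 1 read of the rarer form per library to 2.78 for those with over 100. When it was allowed to follow depth, 415 SE (287 above and 128 below), 132 MXE, 39 A3SS, and 40 A5SS were called. Additivity of Ψ itself, tested with limma, gave 385 SE, of which 205 (53.2%) were above the sum in place of 69.4%, and 162 were among the 731. On the log2 odds of each library, limma called 1 SE, 0 MXE, 0 A3SS, and 2 A5SS, and 0 of the 53 events named below, with 4517, 1086, 401, and 303 at an unadjusted p under 0.05.

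**Figure D1:**
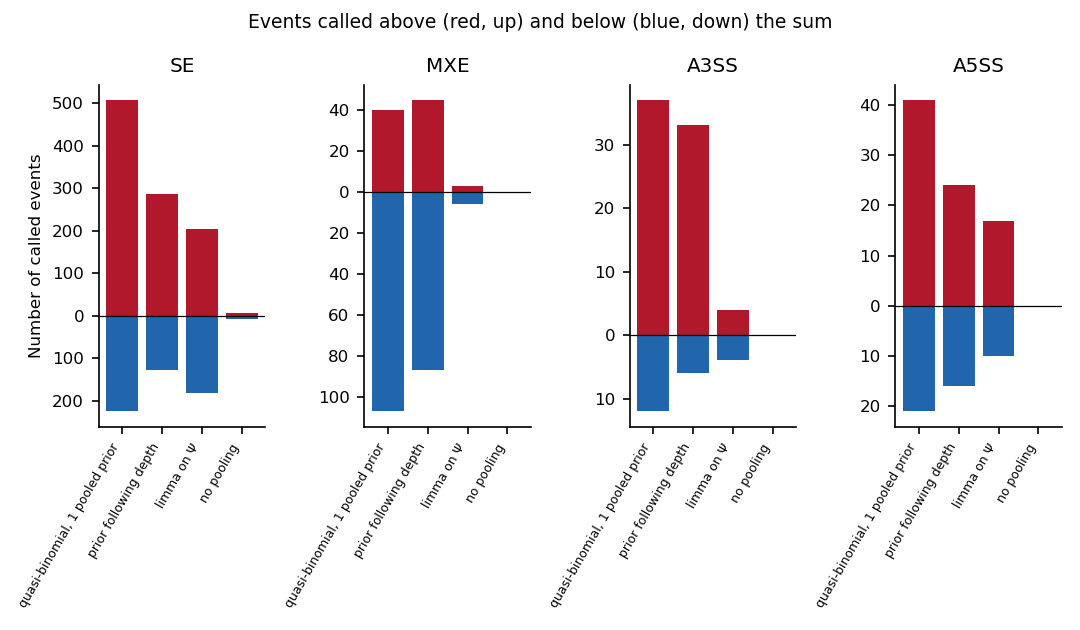
Number of events called above the sum (red, upwards) and below it (blue, downwards) for each event type, by 4 tests. The excess of SE above the sum is large with the quasi-binomial tests (507 against 224, and 287 against 128) and small with limma on Ψ (205 against 180), and few events are called without pooling the dispersion.

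In called events the co-treated libraries tended to leave the range of the other libraries. All 3 co-treated libraries lay on the same side of the 9 others in 42.8% of called SE, against 5.35% of all SE tested. The values for MXE were 38.8% and 5.75%, for A3SS 40.8% and 4.5%, and for A5SS 37.1% and 5.69%. These shares follow in part from the calls and are given as a description.

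Named SE above the sum included exons that stood apart in co-treated cells, with values near DMSO under either inhibitor, and exons that changed with a single inhibitor and lay near DMSO with both. The exons of RALGPS2 and PARP6 are shown as 1 example of each, and their sequences are followed by those of 2 exons below the sum. Capitals are the exon, and lower case letters are the 15 intron bases on either side, from GRCh37, the same build as hg19. RALGPS2 lies at chr1:178861350-178861457 on the plus strand, PARP6 at chr15:72543171-72543310 on the minus strand, PLEKHM2 at chr1:16047809-16047898 on the plus strand, and ATPAF1 at chr1:47119474-47119554 on the minus strand.
RALGPS2: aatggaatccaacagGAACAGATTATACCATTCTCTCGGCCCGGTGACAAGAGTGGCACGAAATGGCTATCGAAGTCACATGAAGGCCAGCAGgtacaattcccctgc
PARP6: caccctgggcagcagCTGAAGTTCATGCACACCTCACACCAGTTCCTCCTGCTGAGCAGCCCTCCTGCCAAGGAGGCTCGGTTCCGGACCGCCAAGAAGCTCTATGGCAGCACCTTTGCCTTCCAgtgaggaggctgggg
PLEKHM2: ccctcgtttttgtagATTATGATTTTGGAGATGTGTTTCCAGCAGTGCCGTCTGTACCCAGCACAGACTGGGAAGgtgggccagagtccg
ATPAF1: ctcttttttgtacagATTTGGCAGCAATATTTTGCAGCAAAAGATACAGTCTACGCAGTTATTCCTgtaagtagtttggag
The exons of RALGPS2 and PLEKHM2 end in G, that of PARP6 in A, and that of ATPAF1 in T. GC content was 51.3% in RALGPS2, 59.1% in PARP6, 48.3% in PLEKHM2, and 37.3% in ATPAF1.

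FUT8 encodes the enzyme that adds core fucose to N-glycans, and its 102-nt exon (chromosome 14, 66083808 to 66083909, plus strand, partly coding) had the largest departure above the sum on the Ψ scale among the SE named. Ψ in libraries a, b, and c was 0.084, 0.052, and 0.088 with DMSO, 0.113, 0.143, and 0.159 with GSK591, 0.061, 0.053, and 0.041 with MS023, and 0.575, 0.638, and 0.547 with co-treatment. All co-treated libraries were far above the others, which stayed near the bottom of the scale. If log odds had added, Ψ would have been 0.101 in place of 0.587 ± 0.046, an interaction of 3.67 ± 0.64 s.e. (adjusted p = 7.47e-06). The event rested on 51 to 162 reads per library.

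The RALGPS2 exon (78 nt, coding), in a gene for an exchange factor of Ral GTPases, had the same form. Ψ was 0.109, 0.212, and 0.326 with DMSO, 0.344, 0.244, and 0.228 with GSK591, 0.339, 0.249, and 0.410 with MS023, and 0.768, 0.748, and 0.827 with co-treatment. The first 3 groups overlapped each other, and no co-treated library overlapped them. Additive log odds predict 0.392, and the interaction was 2.45 ± 0.49 s.e. (adjusted p = 0.000177). LARP4, which binds poly(A) tails, had a 139-nt exon (chromosome 12, 50796458 to 50796596, plus strand, partly coding) on which the single effects were negative in value. Its Ψ was 0.232, 0.284, and 0.272 with DMSO, 0.075, 0.072, and 0.1 with GSK591, 0.186, 0.2, and 0.094 with MS023, and 0.473, 0.479, and 0.389 with co-treatment. GSK591 lowered it (adjusted p = 5.26e-05), MS023 alone did not pass the test (adjusted p = 0.329), and co-treated libraries nonetheless stood above the DMSO libraries. The interaction of 4.02 ± 0.57 s.e. (adjusted p = 7.31e-10) compares a Ψ of 0.447 ± 0.05 with 0.048 expected.

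PARP6, a mono-ADP-ribosyltransferase, had a coding 110-nt exon that GSK591 lowered in the absence of MS023. Ψ was 0.579, 0.556, and 0.575 with DMSO, 0.245, 0.155, and 0.201 with GSK591, 0.567, 0.658, and 0.579 with MS023, and 0.625, 0.610, and 0.572 with co-treatment. The GSK591 libraries stood alone at the low end, and the other 3 groups overlapped. GSK591 shifted the log2 odds by -2.42 without MS023 (adjusted p = 1.21e-37) and by 0.01 with it (adjusted p = 1.0), and the interaction was 2.43 ± 0.26 s.e. (adjusted p = 5.53e-17). At 110 nt, the exon is not a multiple of 3.

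ANKS6 showed the same with the inhibitors exchanged. This gene for a ciliary ankyrin repeat protein had a 503-nt exon (chromosome 9, 101552386 to 101552888, minus strand, coding) with Ψ of 0.836, 0.910, and 0.826 with DMSO, 0.829, 0.901, and 0.795 with GSK591, 0.490, 0.480, and 0.450 with MS023, and 0.763, 0.921, and 0.808 with co-treatment. Only the MS023 libraries were low. MS023 changed the log2 odds by -2.75 alone (adjusted p = 1.57e-19) and by -0.14 on top of GSK591 (adjusted p = 0.996), an interaction of 2.6 ± 0.48 s.e. (adjusted p = 1.3e-05). ANKS3, which encodes a related protein, had a 199-nt exon (chromosome 16, 4776980 to 4777178, minus strand, coding) that was lower with each inhibitor. Ψ was 0.813, 0.753, and 0.858 with DMSO, 0.602, 0.540, and 0.601 with GSK591, 0.504, 0.566, and 0.426 with MS023, and 0.598, 0.572, and 0.853 with co-treatment. Library c of co-treatment was well above the other two, and without it the interaction was 2.1 with an adjusted p of 0.106, against 2.69 ± 0.65 s.e. and 0.00542 with all libraries. On the Ψ scale, limma called FUT8 (adjusted p = 0.000428), LARP4 (0.0034), PARP6 (0.00669), and ANKS6 (0.0358), but not RALGPS2 (0.101) or ANKS3 (0.159).

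Below the sum, the SE with the largest departures were exons that most transcripts carried in the other 3 groups and that fell in co-treated cells. Co-treatment against DMSO passed the test for all 6 named exons, with changes in log2 odds from -3.31 for ALKBH3 (adjusted p = 6.27e-17) to -1.15 for APTX (adjusted p = 0.00261). The exons were chosen by an interaction that holds the same co-treated values, so low values there are favoured and these tests are description. ATPAF1, an assembly factor of mitochondrial ATP synthase, had a coding 51-nt exon with Ψ of 0.770, 0.871, and 0.849 with DMSO, 0.646, 0.694, and 0.716 with GSK591, 0.843, 0.797, and 0.828 with MS023, and 0.327, 0.341, and 0.381 with co-treatment. GSK591 libraries were slightly low, MS023 libraries overlapped DMSO, and co-treated libraries were at less than the level of any other. MS023 changed the log2 odds by -0.09 alone (adjusted p = 0.871) and by -2.06 on top of GSK591 (adjusted p = 4.65e-24). The interaction was -1.96 ± 0.32 s.e. (adjusted p = 6.83e-07), with 0.675 expected and 0.35 ± 0.028 measured.

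PLEKHM2, which couples lysosomes to kinesin, had a coding 60-nt exon with Ψ of 0.661, 0.659, and 0.681 with DMSO, 0.614, 0.580, and 0.735 with GSK591, 0.709, 0.795, and 0.762 with MS023, and 0.298, 0.446, and 0.405 with co-treatment. Co-treated libraries lay below the others, among which MS023 gave the highest mean. The interaction was -2.19 ± 0.39 s.e. (adjusted p = 9.21e-06). SIK3, a salt-inducible kinase, had the largest departure below the sum on the Ψ scale among the SE named, on a 144-nt exon (chromosome 11, 116738662 to 116738805, minus strand, coding). Its Ψ was 0.960, 0.883, and 0.927 with DMSO, 0.787, 0.976, and 0.917 with GSK591, 1.000, 0.978, and 0.989 with MS023, and 0.682, 0.591, and 0.463 with co-treatment. Inclusion was close to complete except in the co-treated libraries, and the interaction of -5.49 ± 1.34 s.e. (adjusted p = 7.53e-05) carries the wide error that few skipping reads give.

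ALKBH3, APTX, and PDS5B act on DNA or chromosomes. ALKBH3 removes alkyl groups from DNA bases, and its 89-nt exon (chromosome 11, 43913591 to 43913679, plus strand, coding) had Ψ of 0.905, 0.882, and 0.885 with DMSO, 0.695, 0.724, and 0.835 with GSK591, 0.940, 0.980, and 0.903 with MS023, and 0.523, 0.491, and 0.376 with co-treatment. Its interaction was -2.9 ± 0.67 s.e. (adjusted p = 0.00161), and co-treated libraries did not overlap any others. APTX, which resolves abortive DNA ligation ends, had a 42-nt exon (chromosome 9, 32988081 to 32988122, minus strand, coding) with Ψ of 0.661, 0.693, and 0.607 with DMSO, 0.592, 0.573, and 0.650 with GSK591, 0.943, 0.809, and 0.715 with MS023, and 0.513, 0.342, and 0.5 with co-treatment. MS023 raised inclusion alone by 1.4 in log2 odds (adjusted p = 0.0191) and lowered it by 0.9 on top of GSK591 (log2 odds of -0.9, adjusted p = 0.0439). The APTX interaction was -2.3 ± 0.51 s.e. (adjusted p = 0.00114), and without MS023 library a it was -1.76 with an adjusted p of 0.0675.

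PDS5B, a regulator of cohesin, had a 108-nt exon (chromosome 13, 33344792 to 33344899, plus strand, coding) with Ψ of 0.847, 0.871, and 0.830 with DMSO, 0.787, 0.836, and 0.824 with GSK591, 0.889, 0.802, and 0.775 with MS023, and 0.449, 0.374, and 0.501 with co-treatment. The co-treated libraries were low and apart. The call was at the threshold, with an interaction of -2.18 ± 0.64 s.e. and an adjusted p of 0.0495, it was not made when the dispersion followed depth (0.121), and it was made in 2 of the 12 fits that left out a library. On the Ψ scale limma called PDS5B (adjusted p = 0.025) and ATPAF1 (0.0113), but not ALKBH3 (0.0619), PLEKHM2 (0.0661), SIK3 (0.105), or APTX (0.21).

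**Figure D2:**
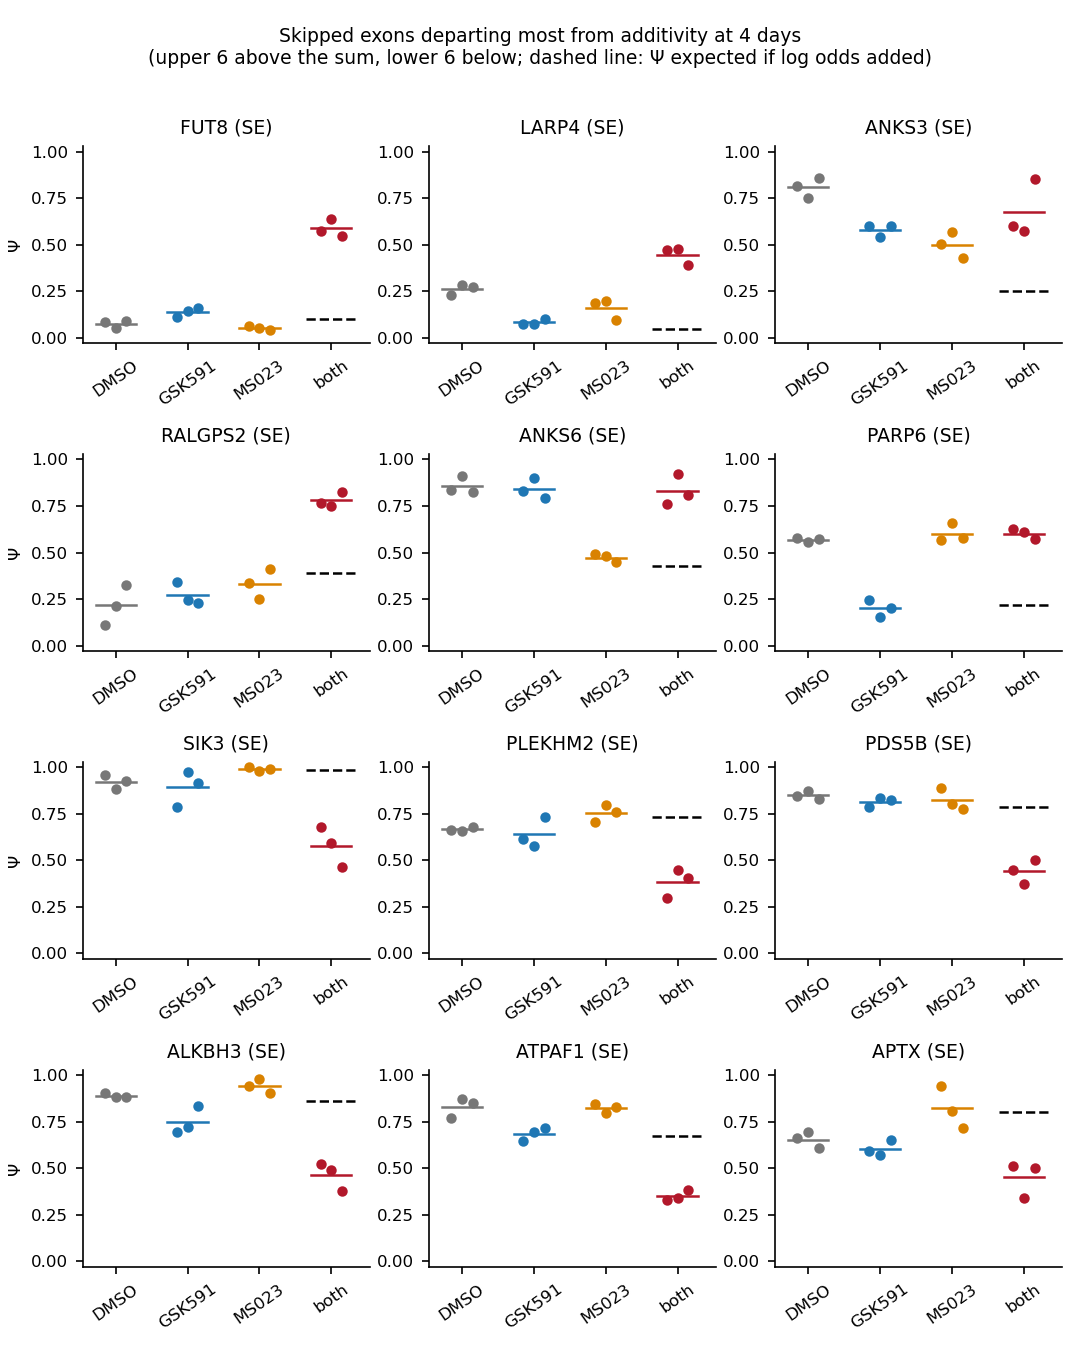
Ψ of 12 SE in the 12 libraries at 4 days (points), with group means (lines) and the Ψ expected for co-treatment if log odds added (dashed). In the upper 6 exons the co-treated libraries lie above the dashed line, as for FUT8 (0.587 against 0.101), and in the lower 6 they lie below it, as for ATPAF1 (0.35 against 0.675).

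Among MXE, 2 of the 6 named pairs were called whichever library was left out. SEC16A, which organizes endoplasmic reticulum exit sites, had a pair of 75-nt and 60-nt exons (chromosome 9, 139340097 to 139340171 and 139339504 to 139339563, minus strand). Ψ of the first was 0.708, 0.720, and 0.682 with DMSO, 0.622, 0.634, and 0.631 with GSK591, 0.708, 0.694, and 0.724 with MS023, and 0.884, 0.837, and 0.861 with co-treatment. The value was lower than DMSO in every GSK591 library and higher in every co-treated one, and the interaction was 1.83 ± 0.32 s.e. (adjusted p = 0.000137). NEK9, a kinase that acts in mitosis, used its 178-nt exon (chromosome 14, 75590749 to 75590926, minus strand) at 0.235 ± 0.032 with DMSO, 0.225 ± 0.043 with GSK591, 0.221 ± 0.029 with MS023, and 0.441 ± 0.053 with both inhibitors. The co-treated libraries lay above the 9 others, with an interaction of 1.52 ± 0.34 s.e. (adjusted p = 0.00766).

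The other named MXE calls depended on single libraries. RAB11FIP3, an effector of the recycling GTPase Rab11, fell from 0.539 ± 0.033 to 0.206 ± 0.038 with MS023 (adjusted p = 1.17e-08) and was at 0.654 ± 0.021 with GSK591 and 0.555 ± 0.13 with co-treatment, an interaction of 1.63 ± 0.44 s.e. (adjusted p = 0.0454). Below the sum, MKNK1, a kinase of the cap-binding protein eIF4E, had Ψ of 0.52 ± 0.064 with DMSO, 0.734 ± 0.073 with GSK591, 0.627 ± 0.029 with MS023, and 0.545 ± 0.1 with both inhibitors. The pattern of SLC25A35, a mitochondrial carrier, was alike, with 0.489 ± 0.073, 0.77 ± 0.081, 0.63 ± 0.053, and 0.548 ± 0.076 in the same order. In both, GSK591 raised Ψ when alone (adjusted p = 0.00591 and 0.00236) and did not pass the test on top of MS023 (0.45 and 0.539). PCID2, of an mRNA export complex, had 0.571 ± 0.064, 0.546 ± 0.043, 0.592 ± 0.038, and 0.342 ± 0.095. The interactions were -1.78 ± 0.47 s.e. for MKNK1 (adjusted p = 0.0398), -2.14 ± 0.55 s.e. for SLC25A35 (0.03), and -1.24 ± 0.33 s.e. for PCID2 (0.0469). Calls were lost in 7 of the 12 fits that left out a library for MKNK1 and PCID2, and in 8 for RAB11FIP3 and SLC25A35. Of these 6 pairs limma on Ψ called SEC16A (adjusted p = 0.00345).

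For A3SS, KRT7 had the smallest p of the named events below the sum. This keratin of simple epithelia had a 61-nt extension of an exon (chromosome 12, 52639135 to 52639195, plus strand, in a transcript without an annotated reading frame). Ψ was 0.689, 0.698, and 0.697 with DMSO, 0.543, 0.562, and 0.544 with GSK591, 0.784, 0.772, and 0.732 with MS023, and 0.371, 0.359, and 0.382 with co-treatment. The groups did not overlap at all, and MS023, which had the highest values alone, gave the lowest in combination. The interaction was -1.56 ± 0.27 s.e. (adjusted p = 4.88e-06), and 0.634 would have been expected. MS023 did not pass the test alone (log2 odds of 0.5, adjusted p = 0.307) and passed on top of GSK591 (-1.06, adjusted p = 3.66e-11).

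Above the sum, ABLIM1, an actin-binding LIM protein, had a 6-nt coding extension (chromosome 10, 116207780 to 116207785, minus strand) with Ψ of 0.160, 0.206, and 0.119 with DMSO, 0.170, 0.163, and 0.211 with GSK591, 0.108, 0.124, and 0.109 with MS023, and 0.388, 0.504, and 0.360 with co-treatment. The co-treated libraries lay above the 9 others, and the interaction was 2.22 ± 0.47 s.e. (adjusted p = 0.00083). RNPEPL1, an aminopeptidase, had a 740-nt extension (chromosome 2, 241513192 to 241513931, plus strand) that fell from 0.961 ± 0.025 to 0.684 ± 0.017 with GSK591 (adjusted p = 1.79e-09) and stood at 0.887 ± 0.038 with MS023 and 0.893 ± 0.046 with co-treatment. Its interaction was 3.54 ± 0.9 s.e. (adjusted p = 0.00477), and without MS023 library a the call was lost (adjusted p = 0.0864).

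JTB had an interaction of 1.72 ± 0.45 s.e. (adjusted p = 0.0172), IRF3, a transcription factor of the interferon response, of -2.26 ± 0.6 s.e. (0.0172), and WSB1, a ubiquitin ligase subunit, of -0.82 ± 0.21 s.e. (0.0106). Each of the 3 lost its call in 5 of the 12 fits that left out a library. In IRF3 the DMSO libraries ranged from 0.034 to 0.285, which covers the GSK591 and the co-treated libraries, and MS023 libraries lay between 0.350 and 0.416. On the Ψ scale limma called KRT7 (adjusted p = 0.00109) and RNPEPL1 (0.0285) of these 6.

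Among A5SS, ENSA showed a graded rise. ENSA encodes an inhibitor of the phosphatase PP2A that acts in mitosis, and its 155-nt extension (chromosome 1, 150599788 to 150599942, minus strand, partly coding) had Ψ of 0.338, 0.295, and 0.273 with DMSO, 0.387, 0.424, and 0.398 with GSK591, 0.549, 0.495, and 0.467 with MS023, and 0.916, 0.863, and 0.909 with co-treatment. The 4 groups did not overlap. Both inhibitors raised Ψ alone (adjusted p = 0.0294 for GSK591 and 1.49e-05 for MS023), and co-treatment exceeded the expected 0.613 by an interaction of 2.46 ± 0.47 s.e. (adjusted p = 6.22e-06).

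BAG6, a chaperone for tail-anchored membrane proteins, went the other way on a 24-nt extension (chromosome 6, 31620177 to 31620200, minus strand, noncoding or UTR). Ψ was 0.246, 0.246, and 0.230 with DMSO, 0.542, 0.505, and 0.518 with GSK591, 0.327, 0.293, and 0.262 with MS023, and 0.386, 0.372, and 0.380 with co-treatment. The GSK591 libraries were the highest, and adding MS023 lowered them (adjusted p = 3.11e-06) although MS023 alone did not pass the test (adjusted p = 0.168). The interaction was -1.23 ± 0.22 s.e. (adjusted p = 9.52e-06). RPL41, a ribosomal protein, had 0.629 ± 0.012 with DMSO, 0.89 ± 0.038 with GSK591, 0.806 ± 0.022 with MS023, and 0.773 ± 0.052 with both inhibitors on a 101-nt extension (chromosome 12, 56510614 to 56510714, plus strand). Each inhibitor raised it alone, and their combination was at 0.773 where 0.949 was expected (interaction -2.48 ± 0.67 s.e., adjusted p = 0.0159).

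The remaining A5SS calls were less firm. TTC8, a BBSome subunit of cilia, had Ψ of 0.264 ± 0.04 with DMSO, 0.284 ± 0.052 with GSK591, 0.42 ± 0.072 with MS023, and 0.191 ± 0.023 with both inhibitors (interaction -1.66 ± 0.43 s.e., adjusted p = 0.0117). PCNT, the centrosomal pericentrin, fell from 0.785 ± 0.054 to 0.166 ± 0.012 with GSK591 (adjusted p = 5.12e-31) and was at 0.585 ± 0.087 with MS023 and 0.237 ± 0.04 with co-treatment, above the expected 0.072 (interaction 1.97 ± 0.53 s.e., adjusted p = 0.0184). The TTC8 call was lost without library c of GSK591 (adjusted p = 0.0563), MS023 (0.057), or co-treatment (0.0515), and that of PCNT without DMSO library a (0.0816), MS023 library c (0.157), or co-treatment library b (0.0717). RPL41 lost it without library a of GSK591 (0.0655) or co-treatment (0.161). USP34, a deubiquitinase, had no read of the shorter exon in any co-treated library, so that Ψ was 1.000 in each of them, and 0.454, 0.758, and 0.936 with GSK591. Its adjusted p was 0.048, and 0.0592 when the dispersion followed depth. The call was lost in 9 of the 12 fits that left out a library, with adjusted p up to 0.255 (without GSK591 library a). Of these 6 A5SS, limma on Ψ called BAG6 (adjusted p = 0.00757), ENSA (0.00907), and RPL41 (0.0108).

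The interaction equals the MS023 change on top of GSK591 minus the MS023 change alone, and these changes come from separate libraries. Alone, MS023 changed 2177 SE (3.59% of 60614), and on top of GSK591 it changed 3459 (5.71%). Over the 2177, 81.4% moved in the same direction in the presence of GSK591. Their median change, signed by the direction alone, was 1.55 log2 odds alone and 0.768 on top of GSK591, and 77.5% were smaller. The rank correlation over these events was 0.616, and between 0.584 and 0.649 whichever library was left out. Over all 60614 tested SE it was 0.122, and 55.1% moved in the same direction. These values over all tested SE depended on single libraries. They were 0.0452 and 51.2% without co-treatment library a, and 0.181 and 58.4% without GSK591 library c. Because the 2177 were chosen on the change alone, larger values there are favoured, and events that overlap share reads.

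GSK591 changed more SE. It changed 6654 (11.0%) alone and 8469 (14.0%) on top of MS023. Of the 6654, 91.9% moved in the same direction on top of MS023, with a median of 2.18 log2 odds alone and 1.61 with MS023, and 64.9% were smaller. Over all 60614 tested SE, 62.3% moved in the same direction, with a rank correlation of 0.328. These were 59% and 0.258 without co-treatment library a, and 65% and 0.365 without MS023 library a. The other types are given with the same caution. For MS023, 80.5% of 282 MXE, 78.3% of 157 A3SS, and 79.0% of 162 A5SS kept the direction. For GSK591, 87.5% of 1249 MXE, 93.5% of 521 A3SS, and 95% of 932 A5SS did.

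**Figure D3:**
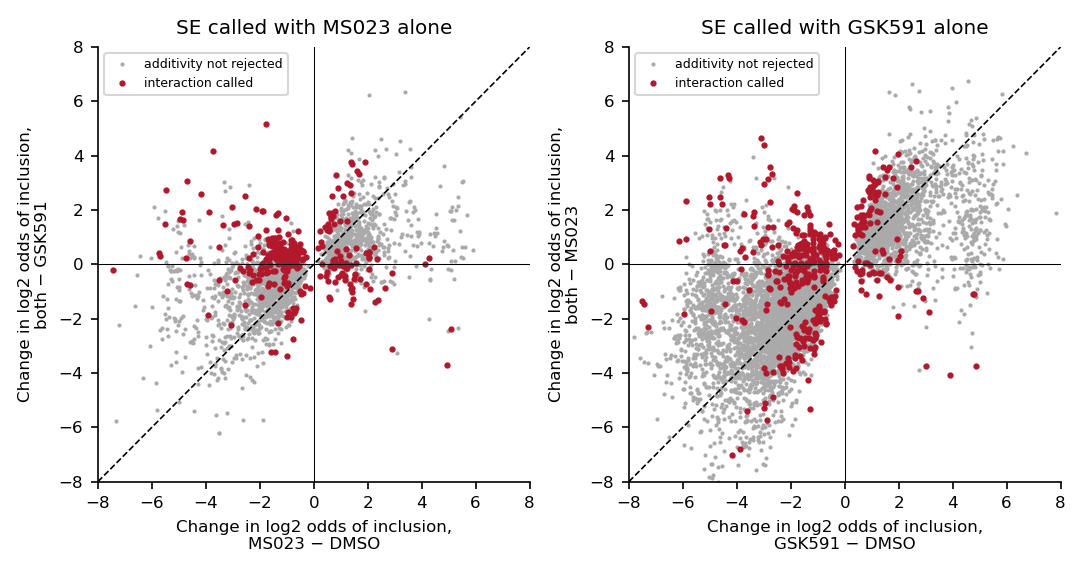
Change in log2 odds of inclusion for SE called with MS023 alone (left, 2177 events) or GSK591 alone (right, 6654), plotted against the change caused by the same inhibitor on top of the other. Grey points are events whose interaction was not called, red points are called, the dashed line marks equal changes, and events beyond 8 in either change are not drawn. More points lie on the flat side of the dashed line, 77.5% at left and 64.9% at right.

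By these calls, the 507 SE above the sum held more exons that answered to an inhibitor only in combination than exons that lost their answer. MS023 passed the test only on top of GSK591 in 246 (48.5%), only alone in 145 (28.6%), under both conditions in the same direction in 49 and in opposite directions in 28, and in neither in 39. Among the 224 below the sum the values were 117 (52.2%), 42, 24, 16, and 25. GSK591 passed only on top of MS023 in 222 (43.8%) of those above and only alone in 139, and below the sum in 100 (44.6%) and 29. MXE below the sum had another make-up, since in 52 of 107 (48.6%) GSK591 passed only alone, and in 30 only on top of MS023. Passing in one condition and not in the other is not in itself a difference, and the tested difference is the interaction. Over all tested SE, MS023 also passed more often on top of GSK591 (3459) than alone (2177). GSK591 likewise passed more often on top of MS023 (8469) than alone (6654). This order alone therefore does not set the called exons apart.

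Called SE were described by the length and the sequence of the exon and its introns, with no test. Exons above the sum had a median of 137 nt, and those below 79 nt, while 10071 tested SE with at least 10 reads of the rarer form per library had 117 nt. Over 300 nt were 10.8% above the sum, 3.12% below, and 5.26% of the 10071. At 27 nt or less, the size of microexons, were 0.789%, 3.57%, and 1.56%. The intron after the exon had a median of 919 nt above the sum, 2100 nt below, and 1860 nt in the 10071, and the intron before it 1260, 1790, and 1840 nt.

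Median GC content was 53.3% above the sum and 47.4% below, beside 51.5% in the 10071 exons. The last exon base was G in 84.2%, 71.4%, and 79.5%. Exons with a length that is a multiple of 3, which leave the reading frame as it is, made up 51.5%, 53.1%, and 46.0%. Called exons had more reads of the rarer form, a median of 37.9 per library above and 64.5 below against 20.3, and the part of depth in these differences was not tested. The annotation held both ends of 99.6% of tested SE, and 99.89% had the bases of a known class of splice site at both ends in GRCh37.

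**Figure D4:**
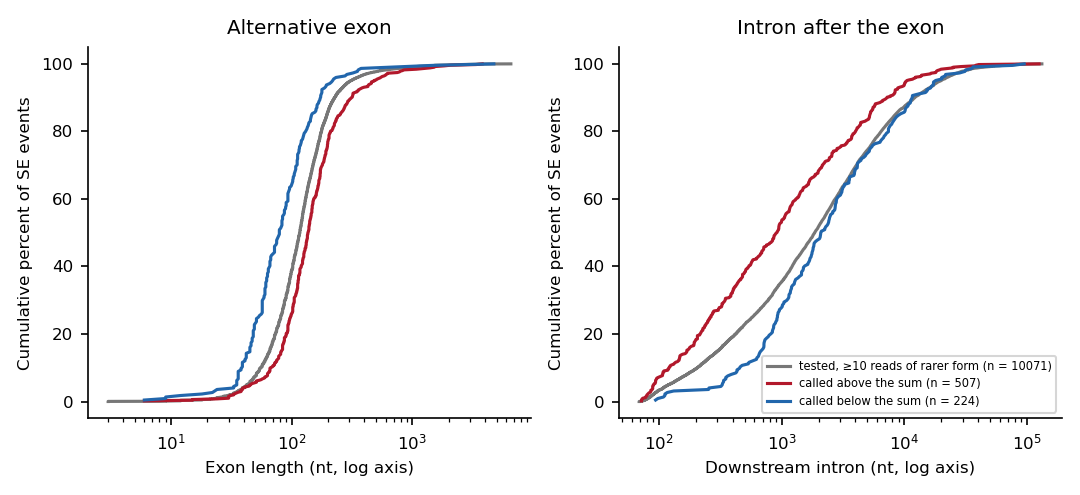
Cumulative percent of SE by length of the exon (left) and of the intron after it (right), on log axes, for SE above the sum (red), SE below (blue), and tested SE with at least 10 reads of the rarer form (grey). Exons below the sum are shorter (median 79 nt against 137 nt above), and introns after exons above the sum are shorter (median 919 nt against 2100 nt below).

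In alternative splice site events above the sum, the median extension was 151 nt in 37 A3SS and 254 nt in 41 A5SS, beside 42 and 74.5 nt in tested events with at least 10 reads of the rarer form. The called events were deeper than these, with a median of 63.7 and 68.0 reads of the rarer form per library against 24.8 and 24.3. Over 50 nt were 83.8% of the A3SS and 87.8% of the A5SS above the sum, against 45.5% and 59.8%. Sites 3 nt apart, a common form of A3SS, made up 20.0% of the tested A3SS with at least 10 such reads and 0.0% of those above the sum. Below the sum medians were 69 nt for 12 A3SS and 90 nt for 21 A5SS. In the annotation, the named extensions of RNPEPL1, WSB1, USP34, TTC8, and SMC4 fell only in transcripts of the retained intron class. Whether reads there came from intron retention or from splice site choice was not tested.

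Events of 13 gene lists were counted next. The share of events called is given over all depths, where it was 1.19% for all genes, and then for the deeper events with at least 10 reads of the rarer form per library, where it was 3.69% for all genes. By type, the deeper share for all genes was 6.25% of SE, 1.41% of MXE, 2.27% of A3SS, and 4.39% of A5SS. The lists differ in their mix of types, and the part of this mix in their shares was not tested. PRMTs themselves and their partners had 1 called event among 113 (0.885%, and 2.86% of the deeper ones). It was a 109-nt exon of PRMT2 (chromosome 21, 48056351 to 48056459, plus strand, noncoding or UTR). Ψ was 0.239, 0.309, and 0.260 with DMSO, 0.171, 0.195, and 0.178 with GSK591, 0.322, 0.379, and 0.418 with MS023, and 0.432, 0.511, and 0.412 with co-treatment. GSK591 lowered it alone (adjusted p = 0.000946) and raised it on top of MS023 (adjusted p = 0.044), and the interaction was 1.21 ± 0.25 s.e. (adjusted p = 0.000431).

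Sm proteins, U1 snRNP proteins, and the SMN complex had 4 calls among 161 events (2.48%, and 5.63% of the deeper ones), 3 of them in SNRNP70. SNRNP70 encodes U1-70K and is known for an exon that introduces a premature stop codon. The 3 events share this region and reads. The 1474-nt segment (chromosome 19, 49605371 to 49606844, plus strand, partly coding, in a transcript annotated for nonsense-mediated decay) had Ψ of 0.045, 0.046, and 0.042 with DMSO, 0.131, 0.138, and 0.120 with GSK591, 0.111, 0.114, and 0.103 with MS023, and 0.080, 0.074, and 0.073 with co-treatment. Each inhibitor raised it alone, and with both it lay between DMSO and either single inhibitor, with no overlap between those ranges. An additive Ψ would have been 0.283, and the interaction was -2.27 ± 0.07 s.e. (adjusted p = 3.9e-231). Its adjusted p was 0.00074 without pooling of the spread, 0.000171 with limma on Ψ, and 0.405 with limma on log2 odds. The 60-nt exon at the start of the segment had 0.009 ± 0.0037, 0.052 ± 0.0065, 0.04 ± 0.0042, and 0.021 ± 0.0051 in the same order (interaction -3.65 ± 0.28 s.e.). SNRPB, the other called gene, gave an interaction of 0.53 ± 0.09 s.e. in an A3SS (adjusted p = 2.73e-06), and is named here after its values were seen.

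Genes for hnRNP and PTB proteins had 10 calls among 311 events (3.22%, and 8.0% of the deeper ones), 3 above and 7 below the sum, in HNRNPA1, HNRNPA2B1, HNRNPC, HNRNPH1, and PTBP2, and 6 of the 10 were called when the dispersion followed depth. HNRNPA2B1 had the smallest p of them, in the 36-nt exon that tells the B1 from the A2 protein. It is shown with the CTTN exon, which had the smallest p in the list of genes with epithelial and mesenchymal isoforms. Capitals and lower case letters are as above. HNRNPA2B1 lies at chr7:26237436-26237501 on the minus strand, and CTTN at chr11:70267561-70267701 on the plus strand.
HNRNPA2B1: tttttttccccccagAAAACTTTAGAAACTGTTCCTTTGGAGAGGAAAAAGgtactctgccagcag
CTTN: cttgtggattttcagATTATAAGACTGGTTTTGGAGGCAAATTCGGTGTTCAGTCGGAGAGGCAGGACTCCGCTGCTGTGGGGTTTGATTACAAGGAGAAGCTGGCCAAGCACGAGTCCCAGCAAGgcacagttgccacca
The CTTN exon is followed by GC, the less common class of donor site, and the HNRNPA2B1 exon by GT. Ψ of the HNRNPA2B1 exon was 0.236, 0.239, and 0.222 with DMSO, 0.223, 0.250, and 0.239 with GSK591, 0.384, 0.402, and 0.385 with MS023, and 0.226, 0.243, and 0.220 with co-treatment. MS023 libraries stood alone, and the other 3 groups overlapped. MS023 raised the log2 odds by 1.08 alone (adjusted p = 3.91e-208), while on top of GSK591 the change was -0.07 (adjusted p = 0.522). The interaction of -1.15 ± 0.06 s.e. (adjusted p = 4.02e-89) rested on 5674 to 10975 reads per library. Its adjusted p was 0.0232 without pooling of the spread, 0.000889 with limma on Ψ, and 0.707 with limma on log2 odds. In HNRNPH1, Ψ of a 92-nt exon (chromosome 5, 179046270 to 179046361, minus strand, coding) was 0.878 ± 0.01 with DMSO, 0.708 ± 0.043 with GSK591, 0.877 ± 0.0066 with MS023, and 0.826 ± 0.017 with both inhibitors (interaction 0.99 ± 0.21 s.e., adjusted p = 0.00102).

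SR proteins and TRA2 had 1 among 76 (1.32%, and 2.78% of the deeper ones), the 36-nt exon of SRSF7 (chromosome 2, 38973286 to 38973321, minus strand, coding), at 0.875 ± 0.0047 with DMSO, 0.867 ± 0.013 with GSK591, 0.853 ± 0.014 with MS023, and 0.758 ± 0.016 with both inhibitors (interaction -0.78 ± 0.17 s.e., adjusted p = 0.00132). The list of RBM, TIA, U2AF, MBNL, and other regulators had 11 among 311 (3.54%, and 8.46% of the deeper ones), 8 above and 3 below. In SRRM2, a large spliceosomal scaffold protein, a 95-nt exon (chromosome 16, 2818506 to 2818600, plus strand) was at 0.121 ± 0.0075, 0.161 ± 0.01, 0.109 ± 0.011, and 0.239 ± 0.013 in the order DMSO, GSK591, MS023, and co-treatment (interaction 0.88 ± 0.19 s.e., adjusted p = 0.000823). A 273-nt exon of the same gene had an interaction of 0.89 ± 0.18 s.e. (adjusted p = 0.000389). Splicing and transcription kinases had 1 call among 152 (0.658%, and 1.92% of the deeper ones), a 375-nt exon of CCNK, the cyclin of CDK12, at 0.037 ± 0.009, 0.02 ± 0.011, 0.03 ± 0.0052, and 0.063 ± 0.018 in that order (interaction 2.04 ± 0.43 s.e., adjusted p = 0.000515).

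RNA-binding proteins with arginine-glycine repeats had 6 calls among 301 (1.99%, and 5.43% of the deeper ones), 3 in each direction, in ALYREF, CHTOP, NONO, and TAF15. When the dispersion followed depth, 3 of the 6 were called. Those in ALYREF (adjusted p = 0.0901), CHTOP (0.0718), and TAF15 (0.0672) were then not called. Mean Ψ of the ALYREF exon was at most 0.003 in any group. NONO, a paraspeckle protein, had a 114-nt exon (chromosome X, 70504834 to 70504947, plus strand, noncoding or UTR) called with different flanking exons, which share reads. In the deeper of these events Ψ was 0.030, 0.040, and 0.038 with DMSO, 0.015, 0.004, and 0.008 with GSK591, 0.032, 0.036, and 0.027 with MS023, and 0.040, 0.040, and 0.035 with co-treatment. Only the GSK591 libraries were low. The interaction was 2.39 ± 0.26 s.e. (adjusted p = 5.95e-19), and GSK591 on top of MS023 did not pass the test (adjusted p = 0.24).

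Nonsense-mediated decay and exon junction genes had 2 calls among 157 events (1.27%, and 4.17% of the deeper ones). RNPS1, a peripheral factor of the exon junction complex, had a 188-nt exon (chromosome 16, 2314574 to 2314761, minus strand, partly coding). Ψ was 0.608, 0.627, and 0.635 with DMSO, 0.628, 0.636, and 0.595 with GSK591, 0.597, 0.608, and 0.642 with MS023, and 0.841, 0.831, and 0.829 with co-treatment. The ranges of the other 3 groups overlapped, and all co-treated libraries were above them. The interaction was 1.69 ± 0.17 s.e. (adjusted p = 1.32e-19, and 0.00201 with limma on Ψ). MAGOH, a core subunit of the same complex, was called in 8 of 12 fits that left out a library, and not when the dispersion followed depth (adjusted p = 0.0159, and 0.0766 with that dispersion).

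mRNA export factors had 6 calls among 219 (2.74%, and 6.67% of the deeper ones), in ALYREF, CHTOP, DDX39A, DDX39B, THOC2, and ZC3H14, and 2 when the dispersion followed depth. A 532-nt extension in THOC2, of the THO complex (A5SS, chromosome X, 122754226 to 122754757, minus strand, partly coding), had 0.075 ± 0.0011 with DMSO, 0.126 ± 0.013 with GSK591, 0.048 ± 0.014 with MS023, and 0.167 ± 0.008 with both inhibitors. MS023 lowered it alone (adjusted p = 0.0232) and had a positive value of 0.47 log2 odds on top of GSK591 that did not pass (adjusted p = 0.0786). Its interaction was 1.16 ± 0.27 s.e. (adjusted p = 0.00225), and 0.0666 was the adjusted p without MS023 library c. The helicase gene DDX39B lay below the sum at -2.32 ± 0.58 s.e. (adjusted p = 0.00644, and 0.0642 without co-treatment library c).

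DNA repair genes had 3 calls among 1186 events (0.253%, and 0.601% of the deeper ones), in DCLRE1C, FANCL, and LIG1. LIG1, the replicative DNA ligase, had a 71-nt extension (A3SS, chromosome 19, 48640946 to 48641016, minus strand) with Ψ of 0.061, 0.049, and 0.053 with DMSO, 0.240, 0.172, and 0.329 with GSK591, 0.033, 0.033, and 0.051 with MS023, and 0.420, 0.536, and 0.434 with co-treatment. GSK591 and co-treated libraries were above the rest, with no overlap between them. The interaction was 1.95 ± 0.48 s.e. (adjusted p = 0.00774), and the call was lost without GSK591 library b (0.0975) or co-treatment library b (0.0651). A DCLRE1C exon of 322 nt rested on 15 to 65 reads per library and was called with an adjusted p of 0.00856, which was 0.0897 without DMSO library b and 0.0549 without co-treatment library a.

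p53 and apoptosis genes had 6 calls among 307 (1.95%, and 5.71% of the deeper ones), among them calls in BCL2L12, BNIP2, and CASP8. In BCL2L12, a BCL2 family gene, 2 overlapping forms of an exon were called. The 143-nt form (chromosome 19, 50170276 to 50170418, plus strand, coding) was at 0.771 ± 0.0061 with DMSO, 0.59 ± 0.0054 with GSK591, 0.667 ± 0.025 with MS023, and 0.69 ± 0.028 with both inhibitors, which lies above the expected 0.462 (interaction 1.36 ± 0.23 s.e., adjusted p = 2.24e-06). Each inhibitor lowered this exon alone (adjusted p = 8.82e-12 for GSK591 and 3.42e-05 for MS023), and the co-treated libraries overlapped those with MS023.

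Genes with known epithelial and mesenchymal isoforms had the highest share of all lists, which were chosen with earlier results of these data known. They gave 29 calls among 490 events (5.92%), 19 above and 10 below, and 18 calls with a dispersion that followed depth. The calls were in 15 of the 33 genes with a tested event, beside 678 of 10295 over all genes. The list had more tested events per gene and more reads of the rarer form (median 6.38 against 2.9 per library). Their part in these shares was not tested. Among the deeper events the share was 13.3%. Among the genes were ARHGEF12, CD44, CSNK1G3, CTTN, DNM2, ENAH, FN1, MAP3K7, NUMB, PKM, RALGPS2, SLK, SPINT2, and TPM2. Several of their events share exons and reads, as in CD44 and FN1, so 29 is not a count of separate exons.

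CTTN, or cortactin, binds branched actin, and its 111-nt coding exon encodes part of the repeats that do so. Ψ was 0.778, 0.848, and 0.839 with DMSO, 0.598, 0.572, and 0.550 with GSK591, 0.835, 0.822, and 0.837 with MS023, and 0.372, 0.392, and 0.420 with co-treatment. MS023 libraries overlapped DMSO, while every co-treated library lay below every GSK591 library. In log2 odds the MS023 change was 0.09 alone (adjusted p = 0.704) and -1.04 on top of GSK591 (adjusted p = 3.56e-23), and the interaction was -1.13 ± 0.15 s.e. (adjusted p = 4.25e-10).

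CD44 is an adhesion receptor with a block of variable exons. Its 204-nt exon (chromosome 11, 35232793 to 35232996, plus strand, coding) had Ψ of 0.037, 0.067, and 0.040 with DMSO, 0.097, 0.111, and 0.104 with GSK591, 0.019, 0.028, and 0.032 with MS023, and 0.147, 0.115, and 0.144 with co-treatment. MS023 lowered it alone (log2 odds of -0.94, adjusted p = 4.9e-06) and raised it on top of GSK591 (0.43, adjusted p = 0.000173), and co-treated libraries were the highest. The interaction was 1.37 ± 0.2 s.e. (adjusted p = 2.17e-09). On the Ψ scale this small absolute change was not called (limma, adjusted p = 0.211).

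TPM2, beta-tropomyosin, and ENAH, an actin regulator with an epithelial exon, are named after their values were seen. In TPM2 the exclusive pair of 76-nt exons had Ψ of 0.47 ± 0.027 with DMSO, 0.255 ± 0.004 with GSK591, 0.626 ± 0.037 with MS023, and 0.279 ± 0.007 with both inhibitors (interaction -0.75 ± 0.1 s.e., adjusted p = 1.03e-06). The mean was higher with MS023 than with DMSO, and with co-treatment it was near that with GSK591. The 63-nt exon of ENAH was at 0.087 ± 0.0068, 0.079 ± 0.013, 0.087 ± 0.0075, and 0.183 ± 0.0061 in the same order (interaction 1.38 ± 0.26 s.e., adjusted p = 4e-05).

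Mitosis and cell division genes had 15 calls among 917 (1.64%, and 5.98% of the deeper ones), 10 above and 5 below, in ANAPC11, CDC27, DSN1, ECT2, KIF23, NUMA1, SGOL1, SMC4, and STAG2. KIF23, the kinesin of the central spindle, had a 312-nt exon (chromosome 15, 69733107 to 69733418, plus strand, coding) with Ψ of 0.129, 0.142, and 0.138 with DMSO, 0.132, 0.166, and 0.122 with GSK591, 0.179, 0.194, and 0.219 with MS023, and 0.374, 0.308, and 0.358 with co-treatment. GSK591 and DMSO overlapped, MS023 was higher, and co-treatment highest. GSK591 changed the log2 odds by 0.02 alone (adjusted p = 0.932) and by 1.12 on top of MS023 (adjusted p = 8.84e-13), and the interaction was 1.1 ± 0.2 s.e. (adjusted p = 2.09e-05). SMC4, a condensin subunit, had a 396-nt extension (A5SS, chromosome 3, 160130242 to 160130637, plus strand, noncoding or UTR) at 0.054 ± 0.01 with DMSO, 0.028 ± 0.011 with GSK591, 0.021 ± 0.0052 with MS023, and 0.044 ± 0.02 with both inhibitors. Each inhibitor lowered it alone, and the interaction was 2.16 ± 0.41 s.e. (adjusted p = 3.82e-05).

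Values at 2 days were set beside those at 4 days for the named events, without a test between days, since the 2-day groups were compared with the same DMSO libraries. These were taken at 4 days, so the 2-day interaction also holds any change of untreated cells between the days, and a value of 0 is not additivity there. At 2 days PARP6 had a mean Ψ of 0.346 under GSK591, 0.583 under MS023, and 0.687 under both, and an interaction of 1.95 ± 0.29 s.e. (adjusted p = 2.62e-08 among the 2-day events). ATPAF1 was at 0.764, 0.772, and 0.436 in that order, with -1.54 ± 0.32 s.e. (adjusted p = 0.000975). HNRNPA2B1 had an interaction of -0.8 ± 0.05 s.e. at 2 days, the 1474-nt segment of SNRNP70 of -1.45 ± 0.07 s.e., and KRT7 of -1.06 ± 0.25 s.e. FUT8 was at 0.304 with co-treatment at 2 days, and its interaction of 2.31 ± 0.69 s.e. did not pass the test (adjusted p = 0.105). RNPS1 was at 0.714 with co-treatment at 2 days (interaction 0.45 ± 0.16 s.e., adjusted p = 0.252), and MAGOH had an interaction of 0.05 ± 0.22 s.e. (adjusted p = 1.0).

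**Figure D5:**
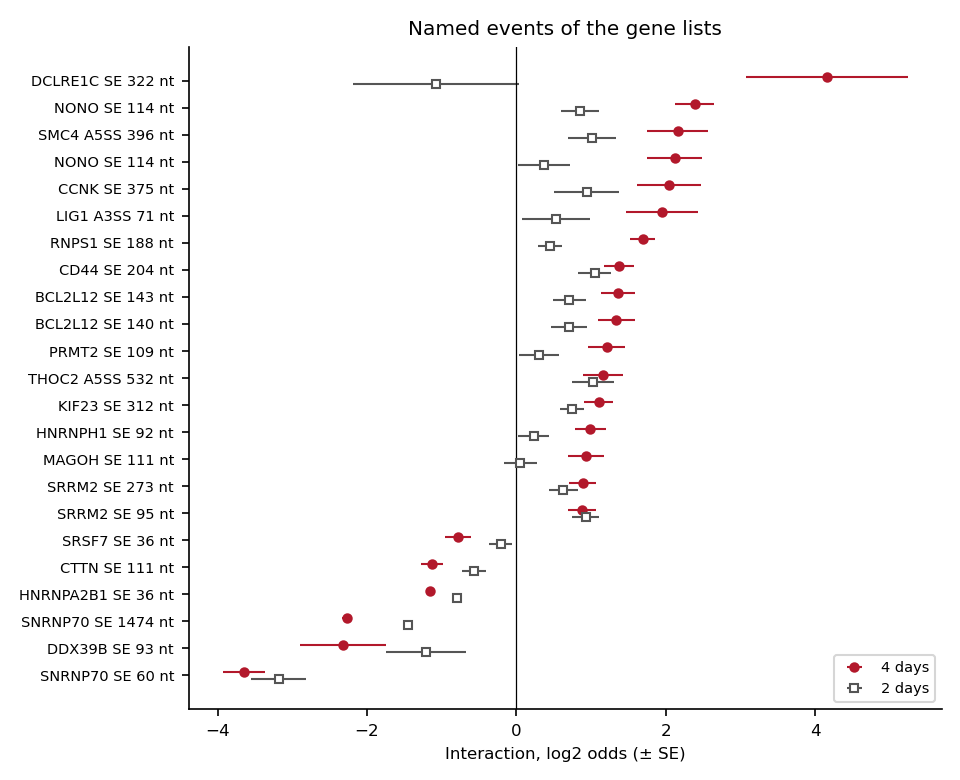
Interaction in log2 odds (± standard error) of the named events of the gene lists at 4 days (filled circles) and 2 days (open squares), where 0 is additivity for the 4-day points. At 4 days the points run from -3.65 for the 60-nt exon of SNRNP70 to 4.16 for DCLRE1C, and the 2-day points use the same 4-day DMSO libraries.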

How the data were processed

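The authors trimmed the paired-end reads of stranded poly(A) libraries, aligned them to hg19 with STAR (2.4.2a per the labels), and ran rMATS for each inhibitor group against DMSO. The deposited tables hold whole-number inclusion and skipping counts per library, not normalized, with effective lengths, Ψ, and the p-values of their own tests, which were not used. The other steps were done here. DMSO counts were identical between tables (0 events differed), so the tables were joined. No column of per-sample values was left unused (0). Pairs of replicates had a chi-square per degree of freedom of 2.25 to 3.03, so none was a duplicate. Counts were fitted by quasi-binomial logistic regression in R 4.3.3 with dispersion moderated by squeezeVar of limma 3.58.1 and held at 1 or above. The script was tested on simulated data. Events of the retained intron type were not used. Members, lists, and tests were chosen with earlier results of these data known.

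Named events are called events with at least 50 reads in every library and the same sign in each fit leaving out a library, 1 per gene and type, by the size of the Ψ interaction (6 SE, 3 of each other type, per direction), and up to 2 events per list with the smallest p. The conditions on reads and sign did not apply to the list events. Events on chromosome 8 were skipped. Sequences and annotation are from GRCh37 and GENCODE, where "noncoding or UTR" covers segments outside annotated reading frames. Alternatives were read minimums of 20 and 1, additivity on Ψ, log odds per library, adjustment over all types, 1 event per site, and leaving out each library. A dispersion that follows depth, and an unpooled one, were added after the data were seen.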

Additional observations from a re-analysis of the deposited data

How the results depend on the processing

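No paired analysis was possible because the tables carry no replicate numbers. A planned model of both counts as library columns was not run. With the dispersion following depth, calls were 415 SE and 40 A5SS. Without pooling they were 15 SE (46.7% above the sum), 0 MXE, 0 A3SS, and 0 A5SS. With limma on log2 odds they were 1 SE (0% above), 0 MXE, 0 A3SS, and 2 A5SS (0% above), with 4517, 1086, 401, and 303 at an unadjusted p under 0.05. With limma on Ψ they were 385 SE (53.2% above), 9 MXE, 8 A3SS (50% above), and 27 A5SS. Leaving out 1 library gave 521 to 646 SE, 112 to 216 MXE, 40 to 56 A3SS, and 41 to 53 A5SS (41 without MS023 library b). The share keeping its direction was 73.2% to 84.0% of MXE for MS023, and 90.8% to 93.4% of SE and 84.2% to 89.5% of MXE for GSK591. Of 53 named events, 50 were called with the dispersion following depth (not PDS5B, USP34, or MAGOH), 5 without pooling, 24 with limma on Ψ, 0 with limma on log2 odds, and 33 in every fit leaving out a library. For events chosen by the size of the Ψ interaction, the sign in those fits was fixed by the rule. Events chosen from the lists had no such rule, and 0 named events reversed in those fits. PDS5B and USP34 were not called with at least 1 read per library (0.0549 and 0.0531) or adjustment over all types (0.0503 and 0.0612), nor PCID2 with at least 20 (0.0514). Few reads of the rarer form, a median of 1.75 per library over tested SE, limit what could be called. The 2-day and 4-day values share DMSO libraries.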
